A study of Sorghum bicolor with 14 samples.

Results

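Among the transcribed loci of the sorghum stem, 264 of the 32726 in the drought table had a higher level at each drier soil reading. They were chosen by their own drought values. On the scale log2(FPKM + 1), where FPKM counts fragments for each kilobase of transcript and each 1000000 fragments mapped, D1 had to lie below D2 and D2 below D3. D3 also had to exceed D1 by at least 1 and to reach at least 1 FPKM. The difference between D3 and D1 on this scale is called the rise below. Because these values picked the loci, the drought course is a description and carries no test.

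The plants were Sorghum bicolor of the grain variety M35-1, which is grown in India in the dry season on water stored in the soil. RNA came from the middle internode of the stem, in 14 libraries that form 7 groups of 2. Groups D1, D2 and D3 were pot plants, 1 to a pot, with watering stopped from the flag leaf stage onward and harvest at booting, at meter readings near 13%, 7% and 2%. The other 4 groups were watered plants sown in a field bed with nitrogen fertilizer, taken at floral initiation, at booting and at the grain filling stages called milky and soft dough. No watered pot group was analysed here, so D1 is the mildest reading and not an unstressed control. The authors' table holds 1 value per locus and group, named by both libraries of that group. No library can be seen alone, and no difference below has a replicate check, an SD or a p-value.

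Booting is the stage at which the panicle swells inside the sheath of the flag leaf, while the upper internodes lengthen. The stem carries water to the panicle and stores sugar that can later move to the grain. In grasses, drying soil raises the hormone abscisic acid, which acts through receptors, phosphatases and kinases on transcription factors. The genes known to be switched on in this way include those for late embryogenesis abundant proteins, which protect cell contents during water loss, and for enzymes of osmolyte synthesis. Which of the 264 loci belong to these classes cannot be said here. The members carry 280 sorghum annotation IDs, the deposited table pairs none of them with a gene name, and 0 of them matched the reference table of gene symbols. By a fixed rule only 2 IDs are therefore named, and other loci are given by position as the table prints it, with the genome build not given in the sources used here. For the same reason the tissue label was not checked against marker genes.

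The set is a small share of what the internode transcribed. Of 17207 loci at 1 FPKM or more in some drought group, 1.53% met the rule. Over the whole drought table, 596 loci were higher at D3 than at D1 by at least 1 on the log2 scale, which is 3.5% of those measured in that pair. The 264 members are 44.3% of these 596. At 305 of the others D2 lay at or below D1, and at 27 it lay at or above D3. The opposite course, a fall at both steps with the same span, was seen at 1018 loci. Over all measured loci the median log2 difference between D3 and D1 was 0.0052, so the columns as a whole were centred near 0. In bulk tissue a higher level per cell and a larger share of the cells that hold a transcript cannot be told apart.

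The members began at moderate or low levels and ended higher. Their median was 4.17 FPKM in D1, 6.41 in D2 and 15.2 in D3. The members ranged from 0.0155 to 328 FPKM in D1, 0.105 to 437 in D2 and 1.11 to 661 in D3. No member was listed at 0 in any drought group. At D1, 61 members were under 1 FPKM and 5 were at 100 FPKM or more, while at D3 there were 27 at 100 FPKM or more. Together the members held 0.519% of all FPKM in D1, 0.835% in D2 and 1.66% in D3. The median ratio of D3 to D1 in FPKM was 3.17.

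**Figure D1:**
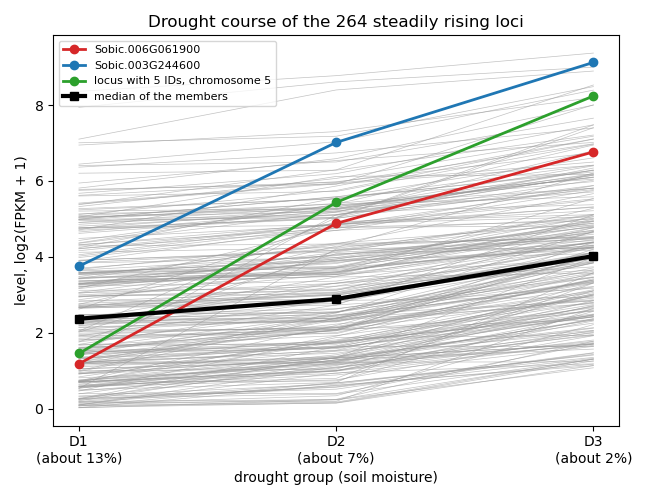
Level of each of the 264 members, as log2(FPKM + 1), in the drought groups D1, D2 and D3 with their soil moisture. Grey lines are single loci, each from 1 pooled value per group, and the black line is the median. The coloured lines are 2 named IDs and the locus with 5 IDs on chromosome 5, which climb from near or below 4 to between 6 and 10 on this scale.

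Most of the rises were close to the threshold. The median rise was 1.28 on the log2 scale and 64 members had less than 1.1. A rise of 2 or more was seen at 41 members, of 3 or more at 10 and of 4 or more at 5. The last member inside was on chromosome 1, at 56720148 to 56724719, with 15.6 FPKM in D1, 28.4 in D2 and 32.3 in D3, a rise of 1.0002. The first locus outside, on chromosome 1 at 74538765 to 74540319, had 12.7, 13.95 and 26.4 FPKM, a rise of 0.998. In all, 91 loci with the same order of levels had a difference from 0.9 to just under 1.

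The 5 members with the largest rises had rises of 4.73 to 6.79, and the sixth had 3.69. The largest was a locus on chromosome 5, from 70154297 to 70179460, to which the table gives 5 IDs. It had 1.74 FPKM in D1, 42.2 in D2 and 301 in D3. A second locus printed with that range was listed at 0 in all drought groups. The 5 IDs were counted as one locus, so which of them carried the fragments is not known.

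Sobic.006G061900, on chromosome 6 from 41719162 to 41721830, had 1.27 FPKM in D1, 28.5 in D2 and 107.8 in D3. Sobic.003G244600, on chromosome 3 from 58393939 to 58395378, had 12.5 FPKM in D1, 128 in D2 and 557 in D3, where it was the second highest member. Both IDs had the greater part of their log2 rise behind them at D2 and were higher again at D3. The fourth of the 5 largest rises lies on chromosome 5 from 70180263 to 70181103, with 3.12, 31.6 and 168 FPKM. The fifth lies on chromosome 2 from 68926305 to 68928806, with 1.68, 33.6 and 70.02 FPKM. In all 5 the first step was larger than the second, the first holding 55.7% to 78.0% of the rise.

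That timing was not the usual one among the members. The second step, from D2 to D3, was the larger at 198 members and the first at 66. The median step was 0.35 from D1 to D2 and 0.96 from D2 to D3 on the log2 scale. The first step held a median of 27.0% of the rise, with quartiles of 13.2% and 49.7%. With a rise of 2 or more, this median was 26.2% and the first step was the larger at 10 of 41 members. With a rise under 2, the median was 27.1% and the first step was the larger at 56 of 223. A first step of 1 or more was seen at 32 members, against 1.19% of all loci measured in that pair. A second step of 1 or more was seen at 122 members, against 5.51% of all loci. Both steps reached 1 at 10 members and neither did at 120. These counts use the values that chose the members, and nothing is read from their distance to the background.

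**Figure D2:**
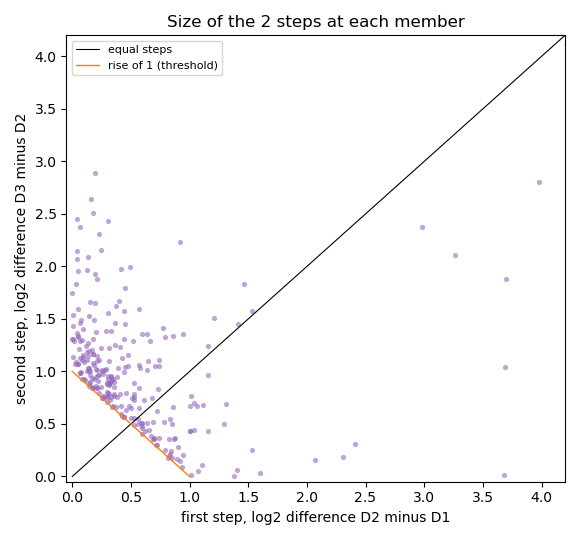
First step (D2 minus D1) against second step (D3 minus D2) for each member, both as differences in log2(FPKM + 1). The black line marks equal steps and the orange line the smallest rise of 1. Of the members, 198 lie above the black line and 66 below it, and the points far to the right are loci that were already high at D2.

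At one end of this range, loci were near their final level by D2. The first step held 90% or more of the rise at 10 members. The clearest case lies on chromosome 8 from 57941394 to 57943066, with 0.444 FPKM in D1, 17.5 in D2 and 17.7 in D3. On chromosome 2, the locus from 71519422 to 71521811 had 5.15, 29.4 and 33.6 FPKM. The one on chromosome 9 from 9322565 to 9326711 had 8.03, 26.4 and 27.2 FPKM. At these loci D2 and D3 are nearly level, and their place among steadily rising loci rests on a small second step. A second step under 0.1 was seen at 7 members.

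At the other end, D1 and D2 were nearly level and D3 stood alone. The first step held less than 10% of the rise at 50 members, and 37 had a first step under 0.1 on the log2 scale. On chromosome 10, the locus from 44899317 to 44900415 had 5.34 FPKM in D1, 5.63 in D2 and 33.5 in D3. A locus on chromosome 7, from 53650887 to 53652790, had 0.113, 0.143 and 5.26 FPKM. The highest of this kind was on chromosome 4 from 55645510 to 55649270, with 53.9, 59.4 and 256 FPKM. The smallest first step of all, on chromosome 9 from 47743017 to 47750391, was from 4.210 to 4.212 FPKM, followed by 16.5 at D3. With no value per library, the order of D1 and D2 at such loci is not known beyond these pooled figures. Steps of at least 0.25 on both sides were seen at 150 of the 264.

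The rises of the most abundant members ran from close to the threshold to among the largest. The highest at D3 lies on chromosome 8 from 61322415 to 61327107, with 328 FPKM in D1, 437 in D2 and 661 in D3, a rise of 1.01. The second highest, Sobic.003G244600, had a rise of 5.37. The third highest was on chromosome 7 from 5416494 to 5420815, with 245, 390 and 511 FPKM, a rise of 1.06. On chromosome 10, the locus from 57929305 to 57932100 went from 128 FPKM to 144 and 358, a rise of 1.48. A locus on chromosome 3, from 7351048 to 7362566, combined a high level with a large rise, having 40.5, 77.5 and 369 FPKM. It shares its printed range with 3 other loci, whose rises were 0.06, 0.10 and 0.87, so the drought course within this range was uneven. Members that started under 1 FPKM had a median rise of 1.34, those at 1 to 10 FPKM 1.34, those at 10 to 100 FPKM 1.19, and the 5 at 100 FPKM or more 1.25. The scale holds down the rises of low loci, since the pseudocount of 1 is large beside them.

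A single ID was given to 252 members and several IDs to 12, with no such count over all loci to set beside them. By printed range the members were close to all measured loci. A printed range shared with another locus was seen at 15.5% of members and at 15.8% of all measured loci. The median length of the range was 4067 bp among members and 4474 bp among measured loci. A range under 1000 bp was seen at 13 members. In a short transcript few fragments can give a high FPKM. The printed range is a span on the chromosome, so a longer range can also hold a short transcript.

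All members lay on the 10 chromosomes. The share of measured loci that met the rule ran from 0.972% on chromosome 4 (20 of 2058) to 3.04% on chromosome 8 (27 of 889). Chromosome 5 had 2.63% (21 of 799), and the other chromosomes lay between 1.16% and 1.78%. Of all measured loci, 5.35% on chromosome 5 and 5.03% on chromosome 8 were higher at D3 than at D1, against 2.54% to 3.63% elsewhere. The members are among these higher loci, so this is not a separate observation. The shares of loci lower at D3 than at D1 were the smallest on the same chromosomes, 5.61% and 5.03%, against 7.48% to 8.96% elsewhere. The members on chromosome 5 had a median rise of 1.38, and 7 of the 21 had a rise of 2 or more. On chromosome 8 the median rise was 1.21, 1 of the 27 had a rise of 2 or more, and the first step was the larger at 15. These are counts of loci in the same pooled columns, and the difference between chromosomes was not tested.

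A few members stood side by side. With the measured loci ordered by position and 1 entry per printed range, 18 members formed 9 pairs of direct neighbours, and no run was longer than 2. The order held 16293 ranges, 264 of them with a member, and the number of pairs was not tested against random placement. The closest pair was that on chromosome 5 already described, the locus with 5 IDs and the one from 70180263 to 70181103, which are 802 bp apart. Both were low at D1, intermediate at D2 and high at D3.

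On chromosome 2 a pair lies between 5299848 and 5307672. Its first locus had 55.2 FPKM in D1, 95.3 in D2 and 255 in D3, and its second had 136, 337 and 476. A pair on chromosome 1, between 58340491 and 58351958, took nearly all of its rise at the last step. Its first locus had 0.410, 0.613 and 10.99 FPKM, and its second had 0.0737, 0.185 and 2.43. The pair on chromosome 9, between 52374258 and 52388456, had 5.33, 7.14 and 18.4 FPKM at the first locus and 8.63, 12.1 and 37.9 at the second. In each of these pairs the neighbours had the same order of levels by the choice of members, but the larger step was not always the same one. On chromosome 2 the first locus had steps of 0.78 and 1.41 and the second had steps of 1.30 and 0.50. Whether neighbours are separate transcripts was not tested.

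The development libraries were not used to choose the members, and they show where else these loci are transcribed. The development table was normalized on its own, so loci were compared across the tables only where IDs and range were both identical. This held for 198 of the 264 members and for 26825 loci in all. Of the 66 members left out, 60 had the same IDs with another range. Of the 198, 180 reached 1 FPKM at some stage and 18 stayed under it at every stage. The median log2(FPKM + 1) of the 198 was 2.91 at floral initiation, then 2.90 at booting, 2.97 in the milky stage and 3.27 in soft dough, against 2.47 in D1, 2.94 in D2 and 4.11 in D3. As a group these loci were thus neither silent nor steadily higher or lower along the field stages.

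**Figure D3:**
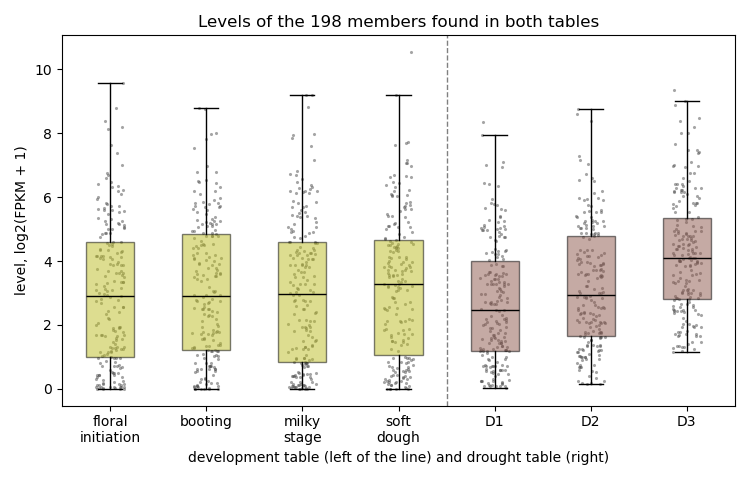
Level of the 198 members found in both tables, as log2(FPKM + 1), at 4 field stages and in 3 drought groups, which were normalized separately. Boxes show the quartiles and median over loci, whiskers reach 1.5 times the box height, and points are single loci. The stage medians lie between 2.90 and 3.27, and the drought medians go from 2.47 to 4.11, as the choice of members requires.

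Single members did vary over development. Of the 180, 111 (61.7%) spanned at least 1 log2 unit over the 4 stages, against 47.1% of all matched loci that reached 1 FPKM at some stage. The stage with the highest level was soft dough at 31.5% of the 111, floral initiation at 27.0%, booting at 23.4% and milky stage at 18.0%. All matched loci that varied gave 29.1%, 24.8%, 25.3% and 20.8% in the same order, so the members' shares were near the background. A climb at every stage that spanned at least 1 log2 unit was seen at 14 members (7.78%) against 4.3% of all matched loci. A decline at every stage over at least the same span was seen at 12 (6.67%) against 5.0%.

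Soft dough against floral initiation spans the field series. Of 166 members measured in that pair, 37 (22.3%) were higher at soft dough, against 15.5% of all matched loci. Another 34 (20.5%) were lower, against 13.8%. The excess over the background was thus of like size in both directions, and the median difference of the members, 0.06, was that of all matched loci, 0.06. For the single steps, booting against floral initiation had 15 members higher (9.09%, background 5.5%) and 10 lower (6.06%, background 3.5%). Milky stage against booting had 20 higher (12.0%, background 10.5%) and 38 lower (22.8%, background 14.1%). Soft dough against milky stage had 26 higher (16.9%, background 7.4%) and 10 lower (6.49%, background 4.01%). The members and the matched loci were not matched for level, which also bears on how often a locus is called.

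Among the members with the largest drought rises, more were higher than lower at soft dough. With a rise of 2 or more, 12 of 25 measured members were higher at soft dough than at floral initiation and 4 were lower. With a rise under 2, 25 of 141 were higher and 30 lower. Over all matched loci, 15.5% were higher and 13.8% lower. This split was chosen after the values were seen and has no test.

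Sobic.006G061900 had 0.930 FPKM at floral initiation, then 6.72 at booting, 0.367 in the milky stage and 100.3 in soft dough. Its soft dough level was thus close to its D3 level of 107.8, while no earlier stage passed 6.72 FPKM. On chromosome 2, the locus from 68926305 to 68928806 had 0.0828 FPKM at floral initiation, then a listed 0 at booting, 0.280 in the milky stage and 40.4 in soft dough. The locus on chromosome 5 from 70180263 to 70181103 had 0.210, a listed 0, 7.03 and 32.8 FPKM along the stages. These 3 are the only ones of the 5 largest rises whose range matched, and at each of them soft dough was the highest stage. For Sobic.003G244600 the ranges differ between the tables. Matched by ID alone it had 1.73, 4.97, 29.4 and 104 FPKM along the stages, a climb at each one.

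Other members joined a high soft dough level to a smaller drought rise. On chromosome 8, the locus from 12100034 to 12105169 had 17.9, 45.9 and 74.5 FPKM in D1 to D3. Along the stages the same locus had 1.31, 0.227, 0.750 and 103 FPKM. A locus on chromosome 10, from 51567423 to 51568369, had 52.9, 61.4 and 125 FPKM in the drought groups and reached 1490 FPKM at soft dough. Its drought values lie within the span of its stages, from 7.44 FPKM at floral initiation upward. The pair on chromosome 2 between 5299848 and 5307672 was low before flowering and high at milky stage. Its first locus had 1.42, 2.87, 52.0 and 52.3 FPKM along the stages, and its second had 2.13, 5.76, 450 and 65.3.

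The members with the opposite development course were high early. On chromosome 1, the locus from 58797810 to 58798558 had 126 FPKM at floral initiation, then 37.9 at booting, 39.6 in the milky stage and 1.83 in soft dough. In the drought groups it had 0.998, 4.77 and 16.2 FPKM, so that even D3 lay below field booting. The locus on chromosome 8 from 2778881 to 2780069 had 766, 255, 82.4 and 67.98 FPKM along the stages, and 3.68, 8.36 and 11.6 in D1 to D3. Another, on chromosome 5 from 3065481 to 3070311, had 292, 186, 34.7 and 34.7 FPKM along the stages and 81.4, 106 and 168 in the drought groups. At the first and second of these all drought values lie under every stage before soft dough, and at the last they lie between the early and the late stages.

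**Figure D4:**
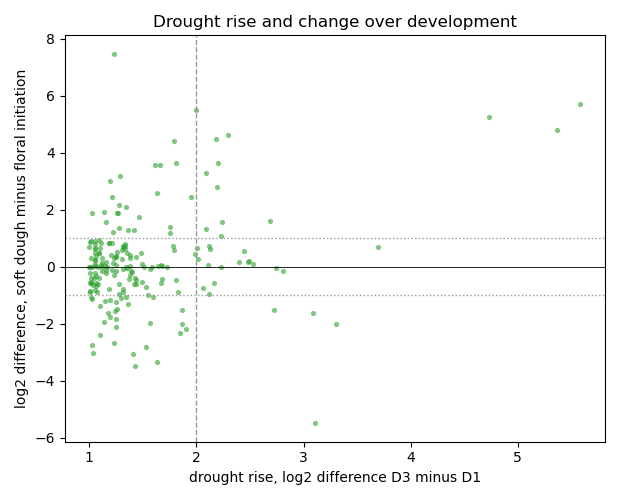
Drought rise (D3 minus D1) against the difference of soft dough minus floral initiation, both in log2(FPKM + 1), for the 198 members found in both tables. Dotted lines mark a difference of 1 in either direction and the dashed line a rise of 2. The 3 points at the far right lie well above the upper dotted line, while the mass of points on the left spreads to both sides.

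Field booting is the stage at which the pots were harvested, and it gives a level outside the drying pots. At 59 of the 198 members the booting level lay below D1, at 101 it lay from D1 to D3, and at 38 it lay above D3. There are no such counts over all matched loci to set beside these. D1 was called lower than booting at 63 of 172 measured members (36.6%, background 12.0%) and higher at 22 (12.8%, background 13.6%). D2 was called lower at 35 of 184 (19.0%, background 15.5%) and higher at 33 (17.9%, background 13.4%). D3 was called lower at 3 of 198 (1.52%, background 13.2%) and higher at 85 (42.9%, background 10.6%). These 3 comparisons share the booting column, and the drought columns chose the members, so a low D1 and a high D3 are built in. What the choice did not fix is the place of booting between them.

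Read that way, the members were sorted into kinds by cuts at 1 log2 unit, which need not mark a division among them. At 82 members D3 was above booting by 1 or more while D1 was not below it by 1 (41.4%, background 10.3%). At 60 members D1 was below booting by 1 or more while D3 was not above it by 1 (30.3%, background 11.7%). Both held at 3 members (1.52%, background 0.0608%) and neither at 53 (26.8%, background 77.9%). Both together need a rise of 2 or more, which 41 of the 264 members had, so the overlap is limited by the cuts. D3 was above every field stage by at least 1 at 52 members (26.3%, background 3.81%), and D1 was below every field stage by at least 1 at 14 (7.07%, background 2.34%). The backgrounds are shares of matched loci at 1 FPKM or more in any column compared. Since D1 and D3 chose the members, nothing is read from the distance of these shares to the background.

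Examples of the first kind include the locus on chromosome 5 from 71134603 to 71142614. It had 2.50, 3.14 and 17.4 FPKM in D1 to D3 and between 0.0424 and 0.338 FPKM at all stages. A locus on chromosome 2, from 9384637 to 9385371, had 19.7, 40.5 and 55.1 FPKM in the drought groups and between 0.321 and 2.04 at the stages. Both were thus well above the field level even at D1. That is not typical of this kind, since D1 was called higher than booting at 22 of its 82 members. The 256 FPKM at D3 of the chromosome 4 locus from 55645510 to 55649270 is an example of the second kind. Its stages had 280, 433, 591 and 588 FPKM, so every drought value lay below every stage. D1 and D2, at 53.9 and 59.4, were the lowest. On chromosome 3, the locus from 72440052 to 72441147 had 2.38, 17.0 and 21.3 FPKM in the drought groups and 9.23, 15.5, 22.5 and 2.58 along the stages, where D2 and D3 were near booting and D1 near soft dough.

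**Figure D5:**
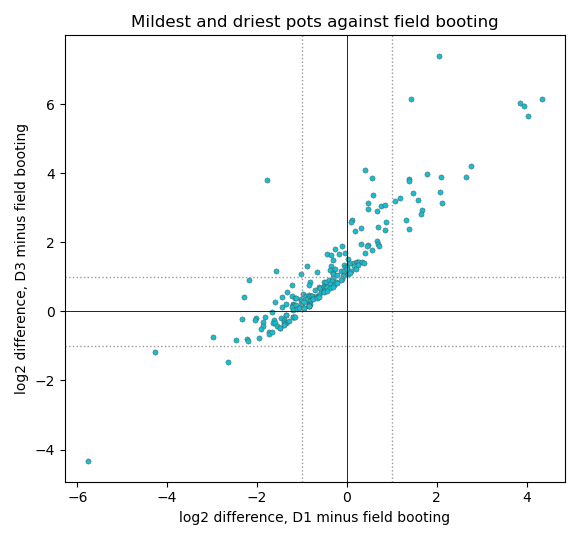
Difference of D1 from field booting (horizontal) and of D3 from field booting (vertical), in log2(FPKM + 1), for the 198 members found in both tables. Dotted lines mark a difference of 1, and the vertical distance of a point from the diagonal is its rise, so the axes are not independent. Points above the upper dotted line include the 82 members with D3 high and D1 not low, and those left of the left dotted line the 60 with D1 low and D3 not high.

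Growth in pots or in the field, stopped watering and the separate normalization of the tables cannot be told apart in these comparisons with booting. The last digit of the library titles is 1 in the drought groups and in floral initiation but 2 in the later stages, and the labels leave it unexplained. It differs in every comparison of a drought group with booting, and in booting and soft dough against floral initiation.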

How the data were processed

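The authors deposited the values as FPKM, per the file headers, with 1 column per group, in separate tables for development (34755 loci) and drought (32726 loci). Tools named by the submitters' processing notes, with no role stated, are HISAT2 2.0.5, Bowtie2 2.2.9, cutadapt 1.8.1 and Cuffdiff. The library kit kept strand, per the labels' protocols. The strand setting of the counting, the filters and the genome build were not given in the sources used here.

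Levels were taken as log2(FPKM + 1) in Python 3.11.15 with pandas 2.3.3. A locus was measured in a pair with 1 FPKM or more in the higher column, and called at a difference of 1. The rule that chose the members was checked on simulated data with large planted rises and no variation between libraries. The calls in pairs were not checked in this way. The members and lists were chosen with earlier results of these data known. The 39 keyword lists for drought, hormone and cell wall genes were not run, since no ID has a name here. The 2 IDs named are those with the largest rise among members with 1 ID and at least 5 FPKM at D3. Other positions were picked after their values were seen.

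Library totals are not in the table. The low values have a grain: the first percentile of non-zero FPKM times kilobases, over ranges of at most 3000 bp, gives 56.4 steps at D1, 84.7 at D2 and 60.1 at D3 for 1 kb at 1 FPKM. If 1 step is 1 fragment, D1 and D3 are the coarser columns. Other pseudocounts, filters, scalings and matchings were tried.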

Additional observations from a re-analysis of the deposited data

How the results depend on the processing

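The number of steadily rising loci depended on the pseudocount: it was 419 with 0.1, which keeps all 264, and 104 with 5, all of them among the 264. A span of 2 log2 units left 41 and steps of at least 0.25 left 150, both stricter by construction. With a pseudocount of 5, members lower at soft dough against floral initiation became 20 and those lower at milky stage against booting 22. Under the same setting, D1 against booting gave 9 higher and 36 lower, D2 17 higher and 20 lower, and D3 53 higher. Matching by IDs alone gave 5 members with D3 lower than booting. The other 54 of 66 recomputed counts stayed within 1.5 times. Columns rescaled to one sum gave 300 loci, with 259 of the 264 among them. Median-of-ratios factors gave 294, with all 264 among them. The 8 recomputed rises of the named IDs had the same direction, which their size fixes. The matching by IDs, and some pseudocounts, were added after seeing the data. No paired analysis was possible because each group has 1 pooled column, and for the same reason no replicate was left out.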
